A study of Mus musculus with 4 samples.

Results

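The histone deacetylases Hdac1 to Hdac10 were examined in cultured smooth muscle cells from the aorta of mice. Members were all probes of the array that its files name for one of these genes, whatever their signal, which gave 17 probes of 10 genes among 41174 probes. The family was selected on measured values of these same arrays, the channel signals and genotype ratios of its probes, so these are a description here and carry no test. Of the 17 probes, 9 probes of 6 genes (Hdac1, Hdac3, Hdac6, Hdac7, Hdac8 and Hdac10) were bright enough to be measured, and the other 8, for Hdac2, Hdac4, Hdac5 and Hdac9, were not.

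The study compared cells in which the autophagy gene Atg7 carries floxed alleles (Atg7F/F SM22α-Cre+) with cells of normal Atg7 (Atg7+/+ SM22α-Cre+), both of the strain given as C57LB/6. Cre was driven in both genotypes by the smooth muscle promoter SM22α, so it was present on both sides of every comparison. Each genotype had 2 biological replicates, grown in DMEM/F-12 with 10% serum and used between passages 4 and 10. Whether a replicate came from 1 mouse or several, and the passage of each extract, are not given in the sources used here. Each 2-colour array set an Atg7F/F extract against the Atg7+/+ extract of the same number, labelled with the dyes Cy5 and Cy3, and a further array repeated each pair with the dyes exchanged. The 4 arrays thus held 4 RNA extracts, each read once in Cy5 and once in Cy3.

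Histone deacetylases remove acetyl groups from lysines, on histones and on other proteins. The class I enzymes Hdac1, Hdac2, Hdac3 and Hdac8 are mainly nuclear, and the first 3 of these act within corepressor complexes such as Sin3, NuRD, CoREST and NCoR. The class IIa enzymes Hdac4, Hdac5, Hdac7 and Hdac9 shuttle between nucleus and cytoplasm and bind MEF2 factors, which in smooth muscle and other muscle regulate differentiation genes. The class IIb enzymes are cytoplasmic for the most part: Hdac6 deacetylates tubulin and binds ubiquitin chains in the handling of protein aggregates, and Hdac10 acts on polyamines.

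The family's result turns on the Hdac1 probe and on the 2 probes of Marcksl1, a MARCKS-like actin-regulating protein, which lie next to it on the same chromosome. The first 30 of each probe's 60 bases follow, 5′ to 3′, to show that these are separate sequences; no base is marked.
Hdac1: tttttaggaggggtctgggtcttttcaggc
Marcksl1, nearer probe: gtttttataaatgtcttactcaagttcaaa
Marcksl1, farther probe: ccccatccctgcagaaggcaattgctgggt
The Hdac1 probe lies at chr4:129193507-129193578 on the minus strand of mm9, the build named in the files, and covers 72 bases of the genome with 60 bases of probe. The Marcksl1 probes lie on the plus strand at chr4:129192947-129193006 and chr4:129192745-129192804. The Hdac1 probe shared no stretch of 30 bases with another probe of the array (0 probes). RefSeq also lists a pseudogene, Hdac1-ps, on chromosome 17, and transcripts of such a copy could not be told apart from those of Hdac1 here. No annotation of mm9 was used, so exon and UTR positions of the probes are not given.

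Between 43.3% and 45.5% of the 43379 spots stood well above background in each of the 8 channels, and no spot was saturated (0 spots). Atg7 itself was 2.33-fold lower in Atg7F/F cells at its measured probe (log2 ratio -1.22 ± 0.07, SD, n = 2), and its other probe was not well above background. The smooth muscle markers Acta2, Tagln and Myh11 were well above background, with log2 ratios of -0.17 ± 0.01, -0.23 ± 0.06 and -0.14 ± 0.56. Other measured probes gave -0.24 ± 0.13 and -0.10 ± 0.19 for Acta2, and -0.38 ± 0.24 for Tagln. Among the 17109 probes measured in at least 1 genotype on all 4 arrays, limma called 0 higher and 0 lower at an adjusted p under 0.05, where the smallest adjusted p was 0.515, and 536 (3.13%) had an unadjusted p under 0.05. The median log2 ratio over these probes was 0.00 with 5th and 95th percentiles of -0.24 and 0.25. With 2 replicate ratios, no exact 2-sided paired test of a single gene can give a p below 0.5.

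Hdac1, a catalytic subunit of the Sin3, NuRD and CoREST complexes, was high in 1 extract of each genotype and low in the other. Replicates 1 and 2 of Atg7F/F cells had raw signals of 3202 and 306 in Cy5, and of 2491 and 223 in Cy3. Replicates 1 and 2 of Atg7+/+ cells had 368 and 5222 in Cy5, and 270.1 and 4343 in Cy3. The Atg7F/F extract of replicate 1 and the Atg7+/+ extract of replicate 2 were thus high in both dyes, the other 2 extracts were low in both, and the genotypes overlapped completely. Within Atg7F/F cells replicate 1 exceeded replicate 2 by 10.5-fold in Cy5 and 11.2-fold in Cy3. Within Atg7+/+ cells replicate 2 exceeded replicate 1 by 14.2-fold in Cy5 and 16.1-fold in Cy3. The dyes therefore gave the same order of extracts, and the local background around these spots was between 79 and 83 in Cy5 and between 45 and 48 in Cy3.

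**Figure D1:**
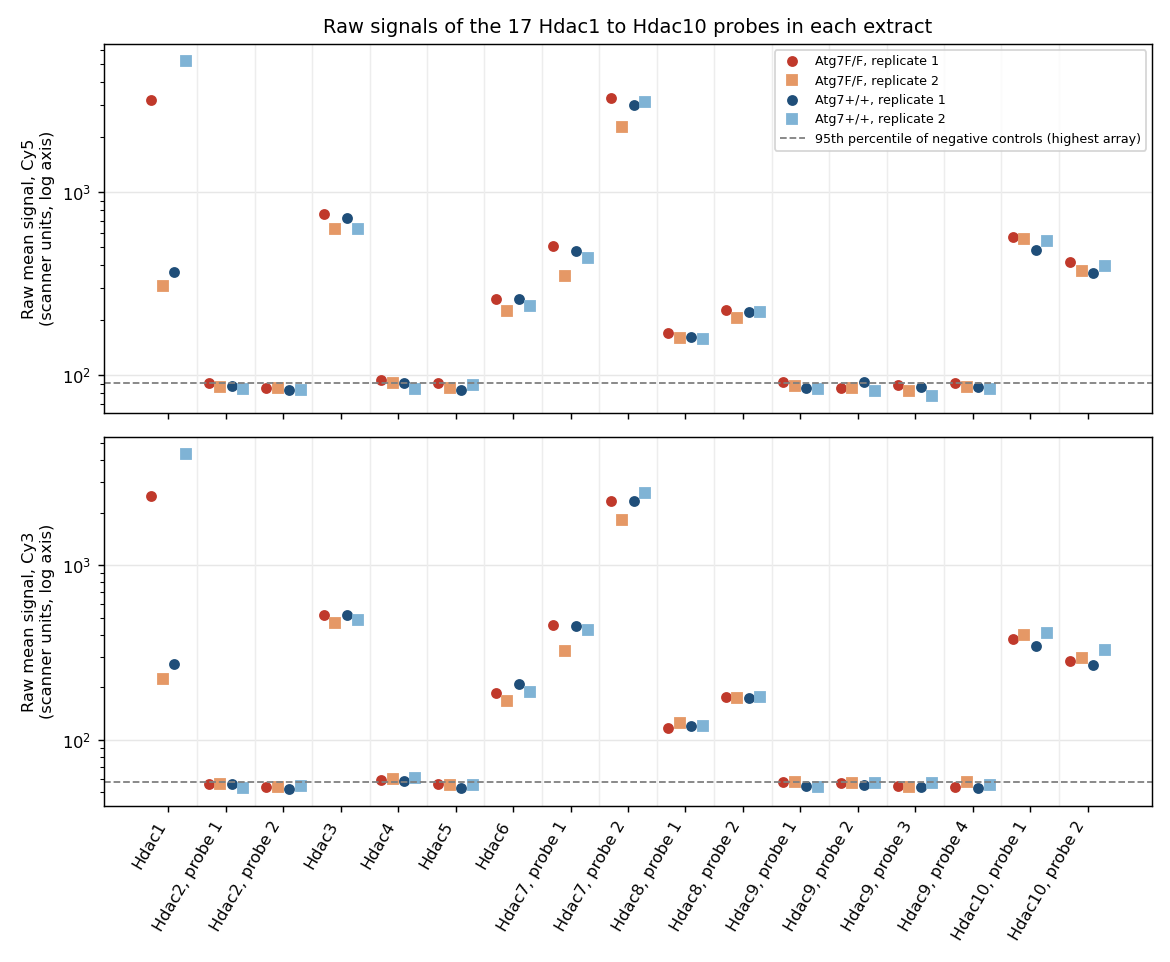
Raw mean signal (log axis) of all 17 probes named for Hdac1 to Hdac10 in each of the 8 channels; colour marks the genotype and the marker the replicate, Cy5 and Cy3 are drawn apart, and the dashed line is the highest 95th percentile of the negative controls. The Hdac1 points split into signals of 223 to 368 and of 2491 to 5222, each holding 1 extract of each genotype, and the 8 probes of Hdac2, Hdac4, Hdac5 and Hdac9 lie between 52.1 and 94.1.

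The normalised ratio of the Hdac1 probe reversed between the replicates. The log2 ratio of Atg7F/F over Atg7+/+ was 3.07 and 3.30 on the arrays of replicate 1 and -3.70 and -4.12 on those of replicate 2. Hdac1 was thus 9.10-fold higher in Atg7F/F cells in replicate 1 and 15.0-fold lower in replicate 2. The mean log2 ratio of -0.36 ± 5.02 (SD, n = 2) describes neither replicate, and the SD is larger than the value. These arrays therefore give no direction for Hdac1 between the genotypes. The arrays of a dye swap differed by 0.22 in replicate 1 and 0.42 in replicate 2 (log2), far less than the replicates did.

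Few probes on the array behaved in this way. Hdac1 had the second largest difference between the replicates' log2 ratios, at rank 2 of 17109. Its highest and lowest extracts differed by 15.5-fold after normalisation, at rank 4 of 17109, where the median over all probes was 1.19-fold and 14 probes (0.0818%) reached 8-fold. In all, 12 probes (0.0701%) were at least 2-fold apart on every array with opposite signs in the 2 replicates, of which 8 (0.0468%) ran as Hdac1 did and 4 (0.0234%) the other way. By comparison, 15 probes (0.0877%) differed by at least 2-fold in one direction in both replicates, and no member probe was among them. These limits were set after the Hdac1 values were seen. The Hdac1 spots held 62 to 65 pixels each, with a pixel coefficient of variation of 0.117 to 0.163 against a median of 0.148 for all probes, and 0 outlier flags.

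**Figure D2:**
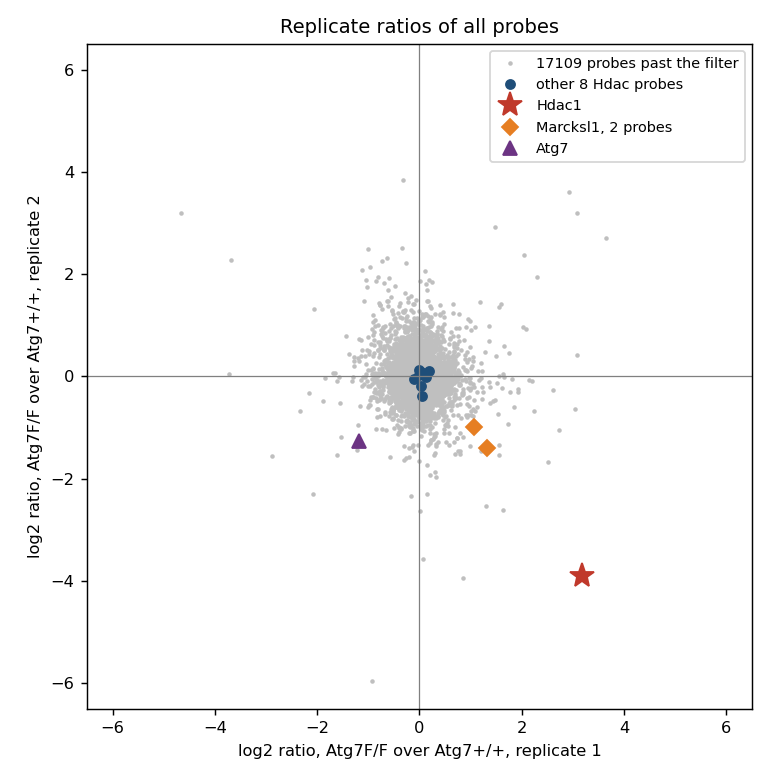
Log2 ratio of Atg7F/F over Atg7+/+ in replicate 2 against replicate 1 for the 17109 probes measured (each point 1 probe, the mean of a dye swap), with the member probes and the probes of Marcksl1 marked. Hdac1 lies at 3.19 and -3.91, while the other 8 measured member probes lie near the origin.

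Marcksl1 had the same 2 high and 2 low extracts as Hdac1 at both of its probes. At the farther probe, the order of the 2 low extracts in raw signals was the reverse of that at Hdac1. After normalisation the log2 levels of Hdac1 were 8.29 in the Atg7F/F extract of replicate 2 and 8.24 in the Atg7+/+ extract of replicate 1. That is the order of the farther probe's raw signals. At the nearer probe, 500 bases from the Hdac1 probe, the Cy5 signals in Atg7F/F cells were 783 and 294 in replicates 1 and 2, and in Atg7+/+ cells 304 and 912. Its Cy3 signals were 542 and 224 in Atg7F/F cells, and 224 and 721 in Atg7+/+ cells. At the farther probe, 702 bases away, the Cy5 signals were 955 and 477 in Atg7F/F cells and 465 and 1040.2 in Atg7+/+ cells. Its Cy3 signals were 738 and 376 in Atg7F/F cells, and 344 and 880 in Atg7+/+ cells. Again the Atg7F/F extract of replicate 1 and the Atg7+/+ extract of replicate 2 were the high ones, in both dyes at both probes. The log2 ratios of the nearer probe were 1.33 in replicate 1 and -1.41 in replicate 2, or 2.51-fold higher and 2.65-fold lower, and those of the farther probe 1.07 and -0.99, or 2.10-fold higher and 1.99-fold lower.

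**Figure D3:**
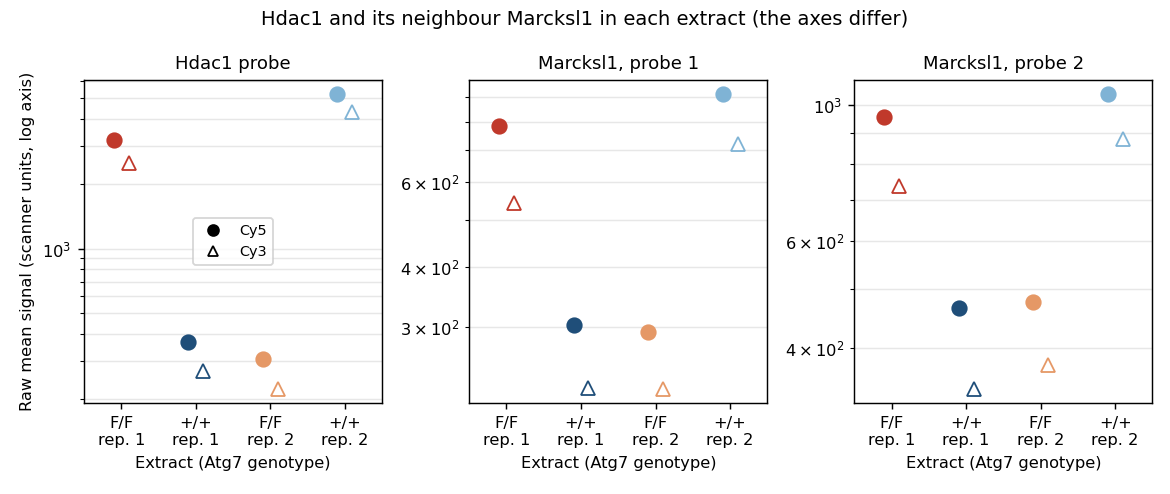
Raw mean signal (log axes, whose ranges differ) of the Hdac1 probe and both Marcksl1 probes in each of the 4 extracts (probe 1 of Marcksl1 is the nearer one), with the Cy5 and Cy3 reading of each extract as separate points. In all 3 panels the Atg7F/F extract of replicate 1 and the Atg7+/+ extract of replicate 2 are the highest, at 3202 and 5222 in Cy5 for Hdac1.

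No other gene measured near Hdac1 shared this size of difference. RefSeq places 0 genes between Marcksl1 and Hdac1, and Lck, a T-cell kinase, on the other side. Within 250 kb of the Hdac1 probe, a window chosen after the values were seen, 22 probes of 14 other genes were measured, and 2 of them, both of Marcksl1, reached a 2-fold ratio in a replicate. Among the rest was Rbbp4, a histone-binding subunit of the complexes in which Hdac1 acts, whose 3 probes had log2 ratios of 0.15, 0.13 and -0.15 in the pair of replicate 1, and of -0.23, -0.44 and -0.04 in that of replicate 2. The highest of the remaining values was 0.58, for a probe of Ccdc28b in replicate 2.

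**Figure D4:**
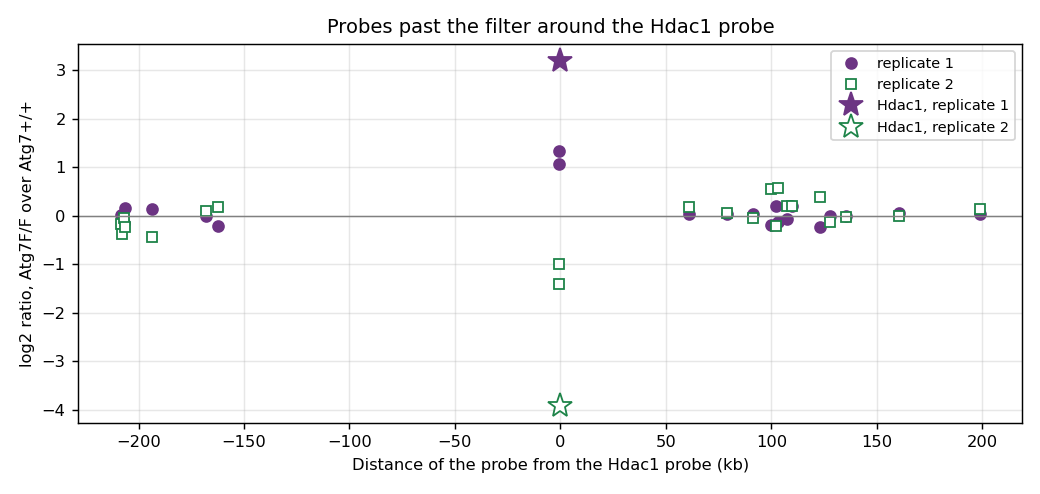
Log2 ratio of Atg7F/F over Atg7+/+ in each replicate for the probes within 250 kb of the Hdac1 probe, against distance from it in kilobases. Hdac1 and the 2 Marcksl1 probes stand apart at distance 0, positive in replicate 1 and negative in replicate 2, and the other 20 probes lie within 0.58 of 0.

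Other measurements differed between the extracts as well, and their part in the Hdac1 values was not tested. Of 7 endothelial marker genes all 7 were measured, though Kdr was well above background in every channel of only 1 genotype. The summed signal of the 7 was 9415 in the Atg7+/+ extract of replicate 2 against 4209 to 4459 in the other 3 extracts. Adventitial fibroblast markers (4 of 4 genes) summed to 1902 and 3354 in the Atg7F/F extracts and 2492 and 4044 in the Atg7+/+ extracts. Of 5 leukocyte and macrophage markers, 2 were measured, with sums of 356 to 406, and Ptprc, Adgre1 and Itgam were not well above background. Smooth muscle markers (6 of 6) summed to 254480 and 192944 in Atg7F/F cells and to 264941 and 234675 in Atg7+/+ cells. The 2 extracts with high Hdac1 were also the highest in the endothelial sum, though by little in the Atg7F/F extract of replicate 1 (4459, against 4209 and 4314 in the extracts with low Hdac1), and not in the other 3 sums. Gene by gene, 6 of the 7 endothelial markers were lower in Atg7F/F cells on all 4 arrays and 0 were higher. Over all 12367 genes, 9.95% were lower and 10.6% higher on all 4 arrays. The median log2 ratio of the 7 markers was -0.37, and limma called none (0 of 7). The exception was Emcn, an endothelial sialomucin, with log2 ratios of 0.17 in replicate 1 and -1.34 in replicate 2. In replicate 1 only Emcn was higher in the Atg7F/F extract. The higher endothelial sum of that extract over its Atg7+/+ partner thus came from Emcn, and the other markers ran the other way.

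Transcripts of the Y chromosome and Xist separated the replicates, not the extracts in which Hdac1 was high. Probes for Ddx3y, Eif2s3y and Jarid1d, genes of the Y chromosome, were well above background in 4 of 4 channels of replicate 1 and in 0 of 4 channels of replicate 2. A probe for Xist, the RNA that coats the inactive X chromosome, was above background in 0 of 4 channels of replicate 1 and 4 of 4 channels of replicate 2. The other 3 probes of Xist, a second probe of Ddx3y and all 3 probes of Uty, a further gene of the Y chromosome, were above background in 0 channels of either replicate. Both genotypes of a replicate shared these states: Ddx3y had Cy5 signals of 313 and 284 in Atg7F/F and Atg7+/+ cells of replicate 1, and of 81.8 and 81.1 in those of replicate 2.

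The remaining class I members that could be measured, Hdac3 and Hdac8, had nearly equal signals in both genotypes. Hdac3, the catalytic subunit of the NCoR complexes, had Cy5 signals of 765 and 629.5 in Atg7F/F cells and 726 and 634 in Atg7+/+ cells. Its Cy3 signals were 519 and 465 in Atg7F/F cells and 518 and 483 in Atg7+/+ cells. The genotypes overlapped in each dye, and the log2 ratio was 0.05 ± 0.04 (SD, n = 2), or 0.03 and 0.08 in the replicates.

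Hdac8, a class I enzyme that works outside the large corepressor complexes and deacetylates cohesin, had 2 probes, at chrX:99700320-99700379 and, across a splice, chrX:99503070-99597969 on the minus strand of mm9. The first gave Cy5 signals of 169.5 and 159 in Atg7F/F cells and 162 and 158 in Atg7+/+ cells, and Cy3 signals of 117 and 125 against 119 and 120.4. The other gave Cy5 signals of 228 and 206 in Atg7F/F cells and 223 and 222 in Atg7+/+ cells, and Cy3 signals of 175 and 174 against 173 and 175. Their log2 ratios were 0.06 ± 0.08 and 0.01 ± 0.03, so the probes differed by 0.05 and neither ratio exceeded its SD between replicates.

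Hdac2, which is close to Hdac1 in sequence and often shares its complexes, could not be measured. Its 2 probes, at chr10:36713455-36713589 and chr10:36715306-36715365, were well above background in none of the channels. No statement on the level of Hdac2, in either genotype or in the extracts where Hdac1 was high or low, can be made from these arrays.

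Hdac7 was the class IIa member that could be measured, and its 2 probes lie at chr15:97623442-97623501 and chr15:97624093-97624152 on the minus strand of mm9. At the first of these, the brighter one, Cy5 signals were 3265 and 2271 in Atg7F/F cells and 3010.2 and 3119.7 in Atg7+/+ cells. Its Cy3 signals were 2344 and 1823 in Atg7F/F cells and 2339 and 2582 in Atg7+/+ cells. The Atg7F/F extract of replicate 2 was the lowest in each dye, while that of replicate 1 was above both Atg7+/+ extracts in Cy5 and between them in Cy3. The log2 ratio was accordingly 0.04 in replicate 1 and -0.38 in replicate 2. Its mean was -0.17 ± 0.30 (SD, n = 2), so the difference was smaller than the SD between replicates.

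The second Hdac7 probe gave the same order in replicate 2 with a larger difference between dyes. Its Cy5 signals were 508 and 350.2 in Atg7F/F cells and 477.5 and 438 in Atg7+/+ cells, and its Cy3 signals were 452 and 322 against 447 and 425. The log2 ratios were -0.32 and 0.39 on the 2 arrays of replicate 1 and -0.41 and 0.03 on those of replicate 2, so the arrays of a dye swap differed by 0.71 and 0.43. The mean was -0.08 ± 0.16, and the 2 probes differed by 0.09.

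Hdac4, Hdac5 and Hdac9, the class IIa members best known from muscle, were not well above background in any channel. Hdac4 had 1 probe (chr1:93829554-93829613), Hdac5 had 1 (chr11:102057068-102057122) and Hdac9 had 4, all on chromosome 12. Across the 8 probes of Hdac2, Hdac4, Hdac5 and Hdac9, 0 of 64 channel readings were well above background, against 72 of 72 for the 9 other member probes. Their raw signals ran from 76.8 to 94.1 in Cy5 and from 52.1 to 60.7 in Cy3. The 153 negative control spots of each array had medians of 82.6 to 87.2 in Cy5 and 53.4 to 55.2 in Cy3, with 95th percentiles of 85.8 to 91.4 and 55.4 to 57.4. The signals of the 8 probes thus lay in or close to the range of spots with no target, and no ratio is given for them.

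Of the class IIb members, Hdac6 had ratios close to 0. Hdac6, the tubulin deacetylase, is read by 1 probe at chrX:7507434-7507493 on the minus strand of mm9. Its Cy5 signals were 263 and 224 in Atg7F/F cells and 260.2 and 240.1 in Atg7+/+ cells, and its Cy3 signals were 185 and 166.5 against 208 and 188. The genotypes overlapped in Cy5, and in Cy3 both Atg7F/F extracts were below both Atg7+/+ extracts. The log2 ratios on the 2 arrays were -0.22 and -0.01 for replicate 1, and -0.02 and -0.08 for replicate 2, with a mean of -0.08 ± 0.05 (SD, n = 2). The ratio was below 0 on all 4 arrays, as it was for 10.1% of the probes measured. This single sign was lost under 6 of 7 other ways of processing. Among these, the processed signals and the deposited value table hold the same values. Raw signals, also among them, are not corrected for dye, and Cy5 exceeded Cy3 on every array at this probe. The loss with raw signals therefore tells nothing about the genotypes.

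Hdac10, the polyamine deacetylase, had 2 probes, at chr15:88953840-88953899 and chr15:88954058-88954117 on the minus strand of mm9. At the first, Cy5 signals were 572 and 554 in Atg7F/F cells and 481 and 543 in Atg7+/+ cells, and Cy3 signals were 380.3 and 399 against 343 and 409. The Atg7F/F extracts were above both Atg7+/+ extracts in Cy5 and lay between them in Cy3, so the genotypes overlapped in that dye. The log2 ratios on the 2 arrays were 0.23 and 0.14 for replicate 1, and 0.18 and 0.01 for replicate 2, with a mean of 0.14 ± 0.06 (SD, n = 2), positive on all 4 arrays as for 10.2% of the probes measured.

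The second Hdac10 probe did not keep one sign. Its Cy5 signals were 418 and 372 in Atg7F/F cells and 361.5 and 398 in Atg7+/+ cells, and its Cy3 signals were 282 and 293 against 268 and 329. Its log2 ratio was 0.13 in replicate 1 and -0.01 in replicate 2 (0.06 ± 0.10). The single sign of the first probe was lost when each array was centred on its median in place of the loess curve. It was also lost with raw signals. These are not corrected for dye, and Cy5 exceeded Cy3 on every array at that probe. The loss with raw signals therefore tells nothing about the genotypes.

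**Figure D5:**
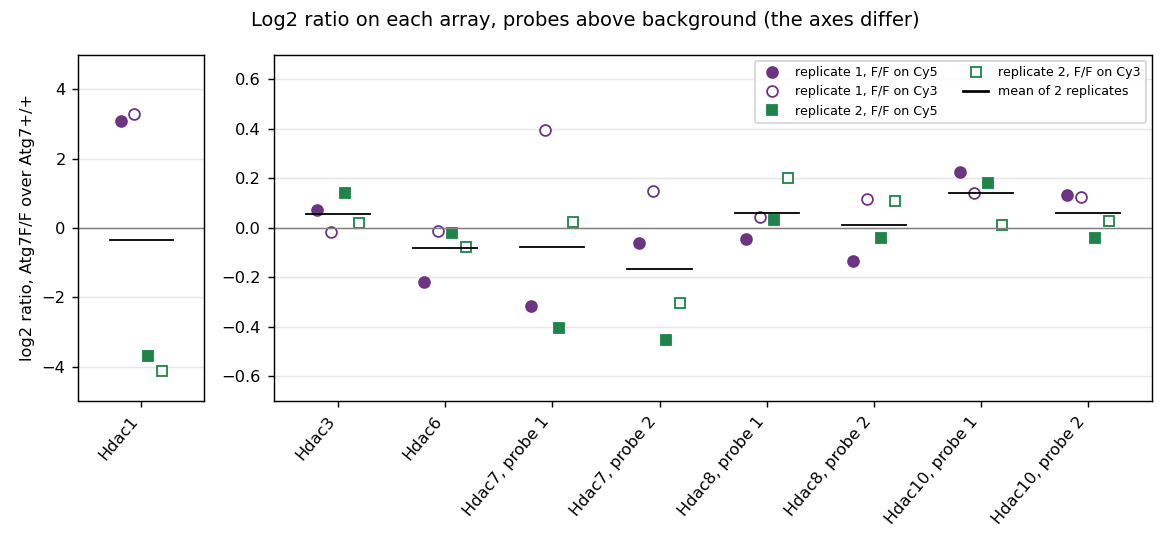
Log2 ratio of Atg7F/F over Atg7+/+ on each of the 4 arrays for the 9 member probes well above background, with the mean of the 2 replicates; filled and open markers tell the dye orientations apart, the axes of the panels differ, and probe 2 of Hdac7 is the brighter one. Apart from Hdac1, whose values run from -4.12 to 3.30, every array's ratio lies between -0.45 and 0.39.

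Across the 9 measured probes, 1 was higher and 1 lower on all 4 arrays, against 10.2% and 10.1% of all 17109 probes (1753 higher and 1735 lower, or 908 and 430 with median centring). A further probe, that of Hdac3, was higher on all 4 arrays under 4 of 7 other ways of processing: normexp with offset 0, no background subtraction, the processed signals and the deposited value table. The processed signals and the deposited value table hold the same values, so they are not separate evidence. The median log2 ratio of the 9 measured probes was 0.01, and 8 of the 9 had a mean within 0.2 of 0. The replicates of these probes differed by a median of 0.12 (log2), against 0.15 over all probes. Outside Hdac1, the highest and lowest of the 4 extracts were 1.07-fold to 1.32-fold apart, against a median of 1.19-fold over all probes.

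Hdac11 and the sirtuins, the NAD-dependent deacetylases, were all measured (8 of 8 genes). None was higher and 2 were lower on all 4 arrays, against 10.6% and 9.95% of 12367 genes, and 0 were called by limma's adjusted p. Sirt1, a nuclear deacetylase of histones and transcription factors, had a log2 ratio of -0.32 ± 0.02 at the brighter probe and -0.07 at another. Sirt2, a cytoplasmic enzyme that shares tubulin as a substrate with Hdac6, had -0.23 ± 0.21. Hdac11 had 0.12 ± 0.02, with replicates of 0.14 and 0.10, and did not keep one sign on all arrays. The median over this group was 0.02, against 0.00 over all genes.

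Subunits of the corepressor complexes that hold the class I enzymes were measured for 35 of 36 genes. Of these, 4 were higher and 2 lower on all 4 arrays, against 10.6% and 9.95% of 12367 genes. None was called (0 of 35), and the median log2 ratio was -0.01. Rbbp7, a histone-binding subunit shared by Sin3 and NuRD, had a log2 ratio of 0.21 ± 0.07, and Ing2, a Sin3 subunit that reads methylated histone H3, had 0.12 ± 0.13, with 0.15 and -0.02 at 2 other probes. Tbl1x, a subunit of the NCoR complexes, had -0.16 ± 0.04, and Sap18, of Sin3, had -0.13 ± 0.16.

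The enzymes that add acetyl groups, the histone acetyltransferases, were measured for 13 of 14 genes. None was higher and 1 was lower on all 4 arrays, against 10.6% and 9.95% of 12367 genes. The lower gene was the nuclear receptor coactivator Ncoa1, with a log2 ratio of -0.18 ± 0.04. None was called (0 of 13), and the median was -0.04.

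MEF2 factors and regulators of the class IIa enzymes (kinases, 14-3-3 proteins and transport factors) were measured for 24 of 25 genes. Of these 4 were higher and 2 lower on all 4 arrays, against 10.6% and 9.95% of 12367 genes. By limma 0 were called, and the median was 0.02. Mef2d, a MEF2 factor, had a log2 ratio of 0.19 ± 0.00 at its brightest probe and 0.13 and -0.01 at 2 others. Sik3, a kinase that phosphorylates class IIa enzymes, had 0.23 ± 0.17 at its brightest probe but -0.06 and -0.09 at 2 others, so its probes disagreed. Ywhag, a 14-3-3 protein, had 0.14 ± 0.00. Among protein kinase D genes, whose products drive class IIa enzymes out of the nucleus, Prkd3 had -0.52 ± 0.15 at the brighter probe and -0.04 at another, and Prkd1 had -0.35 ± 0.26.

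Partners and substrates of Hdac6 in ubiquitin handling, tubulin, dynein and chaperone function were measured for 22 of 23 genes. Of these 2 were higher and 4 lower on all 4 arrays, against 10.6% and 9.95% of 12367 genes. By limma 0 were called, and the median was -0.02. Dync1h1, the dynein heavy chain, had a log2 ratio of -0.28 ± 0.34 at its brighter probe and -0.08 at another. Hsf1, the heat shock factor that Hdac6 binds, had -0.09 ± 0.11. Sqstm1, the ubiquitin-binding autophagy receptor p62, had 0.35 ± 0.23, and Plaa, a ubiquitin-binding partner of Vcp, had 0.18 ± 0.13. With median centring the counts of genes higher and lower on all 4 arrays in the last 5 groups were 0 or 1 in each direction.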

How the data were processed

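RNA from 4 extracts was hybridised to 4 two-colour Agilent arrays, and the scanner files hold a mean signal intensity and a local background intensity per spot and dye, deposited by the authors. The submitters' processing notes name Agilent Feature Extraction 10.1.1.1. The deposited log10 ratios of Cy5 over Cy3 are the scanner software's, per the file headers, and were not the main values. The authors' deposited value table holds log2 values, and 100% of them lay within 0.001 of the log2 ratio of processed signals of Atg7F/F over Atg7+/+, with column medians of 0.20, -0.09, 0.08 and -0.04, so it is not centred. Array and dye of each genotype came from the labels.

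Mean signals were background-corrected with normexp (offset 50) and loess-normalised within arrays in limma 3.58.1 (R 4.3.3), with control spots at weight 0. The offset draws ratios of dim probes towards 0. Each ratio was set as Atg7F/F over Atg7+/+, spots of a probe averaged, and the arrays of a dye swap averaged, which left 2 replicate ratios. Kept were probes without an outlier flag (36 had one) that were well above background in at least 1 genotype on all 4 arrays, 17109 in all. limma's moderated test against 0 was run on these with Benjamini-Hochberg adjustment. The pairing comes from the hybridisation scheme, and the deviations of same-numbered extracts had a correlation of 0.20 across probes. Gene names are the files', updated through RefSeq (assembly GRCm38.p6) for 25097 probes. Gene lists used the brightest probe per gene.

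The members and lists were chosen with earlier results of these data known. Named were all member probes, from each list up to 3 genes per direction with the largest log2 ratio among those of one sign on all arrays, Atg7, Acta2, Tagln and Myh11. Hdac11, Marcksl1, Rbbp4, Ccdc28b, Emcn, the sex-linked genes and the genes that reversed between replicates were added after their values were seen. Genes of 2 lists that this rule named are not reported here. The number of arrays limits the precision.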

Additional observations from a re-analysis of the deposited data

How the results depend on the processing

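The Hdac1 reversal remained under every alternative run: the log2 ratio was 3.14 to 3.46 in replicate 1 and -3.78 to -4.50 in replicate 2. Of 63 values of the 9 measured member probes under other background corrections, normalisations and signals, 60 moved by less than 1 SD between replicates. The sign changed for 1, an Hdac8 probe that went from 0.01 to -0.02 with raw signals. That SD was each probe's own, and at 5.02 it was too wide for Hdac1 to count as moved. The largest shift of a mean log2 ratio was 0.16, at Hdac1, and 0.08 among the other measured member probes. The 63 values count the processed signals and the deposited value table apart, though both hold the same values. Leaving out 1 replicate gave 3.19 or -3.91 for Hdac1 and 0.04 or -0.38 for the brighter Hdac7 probe.

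limma's count of called probes, 0 in each direction in the paired fit, was 1 higher (Gsta1) with no replicate block and 7 higher and 2 lower with 4 arrays and the extract pair as a random block; 0 of these were member probes. The counts of probes with one sign on all 4 arrays, 1753 higher and 1735 lower, were 908 and 430 with median centring and 3263 and 2817 with no filter on dim probes. The 12 probes reversed by 2-fold between replicates numbered 8 with median centring and 48 with processed signals, alternatives chosen for this count after seeing the data. The causes were not tested. With 2 replicates and 8 of 17 member probes near background, Hdac2, Hdac4, Hdac5 and Hdac9 stay unmeasured.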

Other observations

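The other probes that reversed between the replicates by at least 2-fold on every array came from genes on several chromosomes. Besides Hdac1 and Marcksl1, those higher in Atg7F/F cells in replicate 1 and lower in replicate 2 were Cck, a peptide hormone (log2 ratios of 1.64 and -2.61), Mcmbp, a binding protein of the MCM helicase (2.52 and -1.67), Cap1, an actin-binding protein (1.31 and -2.54), Dctn5, a dynactin subunit (1.56 and -1.53), Moxd1 (1.56 and -1.34) and Med1, a Mediator subunit (1.20 and -1.45). Of these Cap1 lies on chromosome 4, as Hdac1 does. Those that ran the other way were BC006659 (-4.67 and 3.19), 2210409E12Rik (-3.68 and 2.27), Rhobtb3 (-2.06 and 1.33) and Rspo2, a Wnt agonist (-1.09 and 1.47). All were named after their values were seen. None passed limma's adjusted p (0 of 12), but that test is of the mean ratio. It could hardly call probes chosen for opposite signs in the replicates.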
